A study of Mus musculus with 8 samples.

Results

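The cytosolic ribosomal proteins are the protein part of the ribosome, and their genes were taken here as the rows of the deposited count table whose symbols are Rpl, Rps or Rplp followed by a number with at most a short suffix, plus Rpsa and Fau. The rule gave 83 genes of the 25240 rows, 33 of the small subunit and 50 of the large subunit. The libraries came from kidney cells of p16-tdTomato mice, in which a red fluorescent reporter marks the p16 locus, after chronic kidney disease had been brought on with an adenine-rich diet. Cells were grouped by the reporter, with 4 Tomato-positive and 4 Tomato-negative libraries, and all 8 share the genotype, the diet and the labelled cell type, proximal tubular epithelial cell. Each of the identifiers CKD523_2, CKD523_3, CKD627_1 and CKD627_2 has 1 library of each group, and no library from mice without the diet was analysed here. The labels do not say whether an identifier is 1 animal or what the prefixes CKD523 and CKD627 stand for, so the p-values measure the spread between these libraries.

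Every cell builds its ribosomes from about equal numbers of the ribosomal proteins, of which those named Rps sit in the small subunit, which decodes the mRNA, and those named Rpl in the large subunit, which joins amino acids. Most of these genes are short, strongly transcribed and present in the genome together with many processed pseudogenes, which are reverse-transcribed copies of their mRNAs. Their mRNAs begin with a run of pyrimidines, the 5′ terminal oligopyrimidine (TOP) tract, through which the kinase mTORC1 and the protein LARP1 control their translation. Free ribosomal proteins, above all those of the 5S particle, bind MDM2 and so act on p53, which links ribosome assembly to growth arrest and senescence.

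Libraries held 13474439 to 19886202 counts in the Tomato-positive group and 14045470 to 17102054 in the Tomato-negative group. The reporter transcript stood at 3167 to 4143 CPM (the count scaled to the total of its library) in the Tomato-positive libraries, against 79.5 to 159 CPM in the Tomato-negative libraries, so its levels followed the labels. Proximal tubule markers were present in all 8 libraries, but markers of other nephron segments were too. The 18 proximal tubule markers summed to 5284 to 13763 CPM in the Tomato-positive libraries, against 7758 to 29781 CPM in the Tomato-negative libraries, and 6 of the 17 tested were lower by the paired test described below (1 without the pairing), where 3.81% of all genes were lower and 3.82% higher. The 8 principal cell markers summed to 1018 to 5648 CPM in the Tomato-positive libraries, against 217 to 2461 CPM in the Tomato-negative libraries, and all 8 were higher by that test (1 without the pairing). Loop of Henle markers summed to 1803 to 7349 CPM in the Tomato-positive libraries, against 3934 to 15004 CPM in the Tomato-negative libraries, with 5 of 7 lower (0 without the pairing). These lists also followed the prefixes: loop of Henle markers summed to 5893 to 15004 CPM in the CKD627 libraries, against 1803 to 4305 CPM in the CKD523 libraries, and proximal tubule markers to 5284 to 9519 CPM in the CKD627 libraries, against 13344 to 29781 CPM in the CKD523 libraries. Of the erythroid list, Hba-a1, Hba-a2, Hbb-bs and Hbb-bt were at 0 in every library. These zeros do not show absence, since no source used here says how reads that fit several genes were counted. In such bulk libraries, fewer cells of a type and less RNA per cell cannot be told apart, and the part of this cell makeup in the ribosomal protein values below was not tested.

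The rows of the 83 ribosomal protein genes took about the same share of all counts in 7 of the 8 libraries, and the exception was a Tomato-negative one. Counts in the rows of close copies outside the rule, described below, are not part of this share. In the order CKD523_2, CKD523_3, CKD627_1 and CKD627_2, which is kept throughout, the 83 genes took 0.897, 0.830, 0.849 and 0.854% of all counts in the Tomato-positive libraries, against 0.812, 0.800, 1.56 and 0.959% in the Tomato-negative libraries. The Tomato-negative library CKD627_1 stood apart at 1.56%, while the other Tomato-negative libraries overlapped the Tomato-positive range. Group means were 0.857 ± 0.0281% for Tomato-positive and 1.03 ± 0.358% for Tomato-negative cells (SD, n = 4 each). Without the Tomato-negative library CKD627_1 they were 0.857 ± 0.0281% (n = 4) and 0.857 ± 0.0887% (n = 3).

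**Figure D1:**
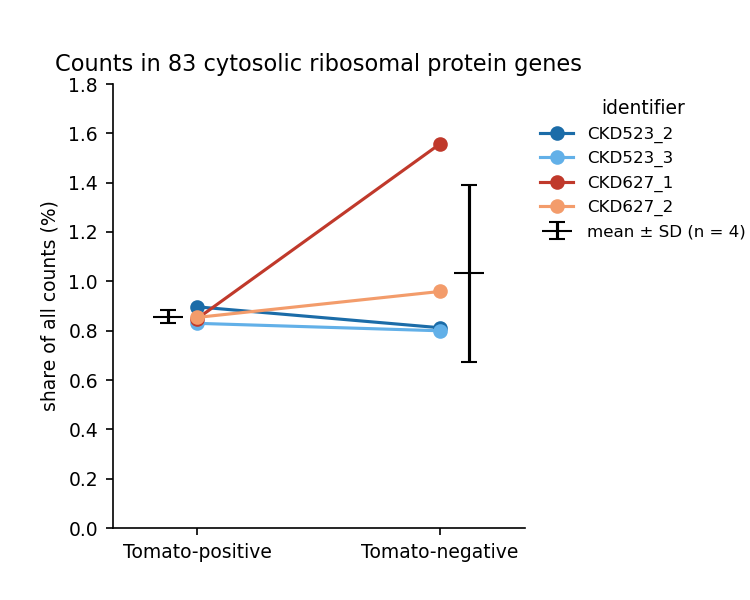
Share of all counts in the 83 cytosolic ribosomal protein genes (vertical axis, percent), 1 point per library, with Tomato-positive libraries on the left, Tomato-negative on the right and a line joining the libraries of an identifier; black bars give mean ± SD (n = 4). The Tomato-negative library CKD627_1 lies at 1.56% and the other 7 between 0.800% and 0.959%.

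No ribosomal protein gene passed the test between Tomato-positive and Tomato-negative cells. Counts were tested with edgeR's quasi-likelihood test over all 14284 genes that passed a filter on low counts, with Benjamini-Hochberg adjusted p under 0.05 as the threshold, and 80 of the 83 members passed that filter. Without the pairing 0 of the 80 were called, where 0.595% of all genes were (85 genes), and 9 members were lower at an unadjusted p under 0.05, or 11.2%, against 8.98% of all genes. With the identifier as a block the test called 7.62% of all genes (1089) and again 0 members, and 10 members (12.5%) were lower at an unadjusted p under 0.05, against 12.3% of all genes. The median log2 difference of the 80 members was -0.23 with the pairing, beside 0.01 over all genes tested, and -0.27 without it, beside 0.01; 60 of the 80 were below 0 in the paired fit. The small and large subunits gave paired medians of -0.25 (33 tested) and -0.21 (47 tested). Other tools run with the pairing called a few members, all lower: DESeq2 called Rps26, Rplp1 and Rpl14, where 7.39% of all genes were lower, and limma-voom called Rpl14, where 5.01% were.

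The 4 pairs did not show the same shift. Median log2 differences of the 80 members, Tomato-positive minus Tomato-negative, were 0.13, 0.03, -0.92 and -0.16 in the 4 pairs, and 25, 36, 78 and 58 of the 80 members were lower in Tomato-positive cells. In the pair CKD627_1 nearly every member was lower, whereas in both CKD523 pairs more members were higher than lower. Over all genes tested the share that was lower lay between 48.5% and 50.1% in each pair. Altogether 13 members were lower in all 4 pairs (16.2%, against 17.6% of all genes), namely Rpl14, Rpl15, Rpl23, Rpl29, Rpl36, Rpl39, Rpl3l, Rplp1, Rps25, Rps26, Rps27l, Rps4x and Rps6. Only Rpl10 and Rps28 were higher in all 4 (2.5%, against 18% of all genes).

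**Figure D2:**
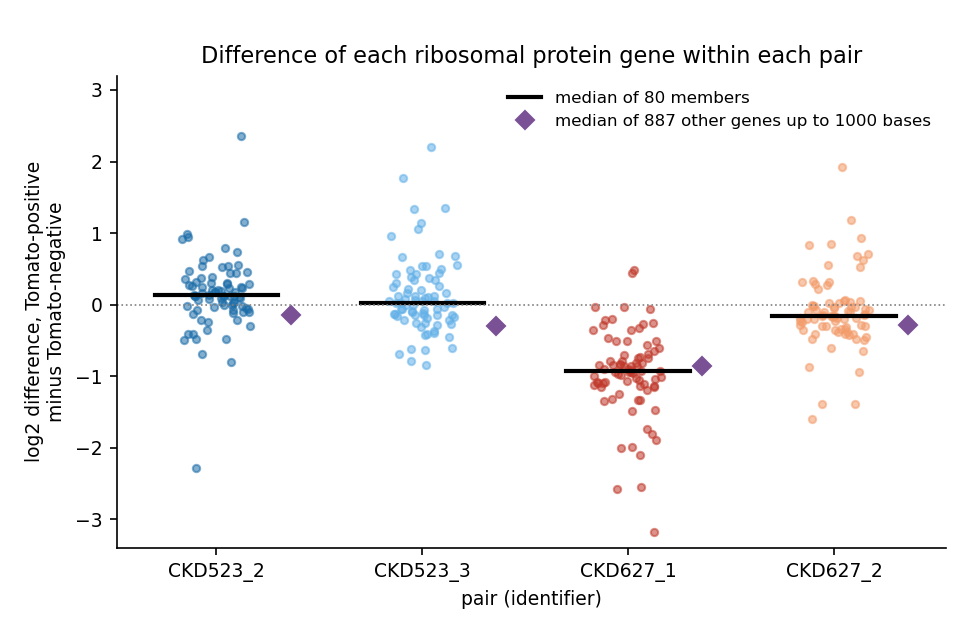
Log2 difference of CPM after TMM scaling, Tomato-positive minus Tomato-negative (vertical axis), for each of the 80 tested ribosomal protein genes in each of the 4 pairs; black bars are the members' medians and diamonds the medians of 887 other genes with transcripts of up to 1000 bases. The members' median is -0.92 in the pair CKD627_1 and between -0.16 and 0.13 in the other 3 pairs.

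In the pair CKD627_1 it was the Tomato-negative library that stood furthest apart. Of the 80 members, 60 (75%) had their highest level of the 8 libraries there, where 21.5% of all genes did, and their median level was 0.76 on the log2 scale above the mean of the other 7 libraries. The Tomato-positive library of the pair had the lowest such median of the 8, at -0.28, against a mean that includes the high library. Only 1 member had its highest level there, where 17.5% of all genes did. Leaving the Tomato-negative library CKD627_1 out moved the members' unpaired median to -0.04. Leaving out the pair moved the paired median to -0.01, with 1 member called, Rpl10a, which was higher (4.6% of all genes were). Short transcripts of other kinds were also lower in that pair, to a degree that depended on the length class. Ribosomal protein mRNAs are short, with a median transcript of 816 bases among the tested members, against 2925.5 bases among all genes tested. The 887 other genes of up to 1000 bases had medians of -0.15, -0.30, -0.86 and -0.28 in the 4 pairs, beside 0.12, 0.03, -0.97 and -0.17 for the 55 members of that length. Genes of over 4000 bases had medians of 0.05, 0.12, 0.59 and 0.16. In both CKD523 pairs the short members stood above other genes of their length, and in the pair CKD627_1 slightly below them.

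With a trend on transcript length taken out of each library, the members' medians became 0.07 in the paired fit and 0.08 in the unpaired fit, opposite in sign to the medians above. The paired test then called Rpl3, Rpl10a and Rps4l, all higher, where 3.7% of all genes were higher, and the unpaired test called Rpl10a alone, where 0.259% were. With the Tomato-negative library CKD627_1 also left out, the unpaired median was 0.16, with 62 of 80 members above 0. With its pair left out instead, the paired median was 0.17, with 63 of 80 above 0. These 2 fits were chosen after seeing the data. Rpl10a, a large-subunit protein near the exit site of the ribosome, had 58.5, 56.2, 53.2 and 67.9 CPM in the Tomato-positive libraries, against 38.8, 35.9, 60.3 and 46.8 CPM in the Tomato-negative libraries. Its levels were higher in Tomato-positive cells of every pair but CKD627_1, at log2 differences of 0.55, 0.53, -0.21 and 0.56, and the paired difference was 0.36 ± 0.17 (SE), with an adjusted p of 0.231. After the correction for length it was 0.73 ± 0.11 (SE), with an adjusted p of 0.0069 by edgeR. It was singled out after its values were seen, and nearly all of its coding sequence recurs in other genes, as given below.

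Among the most abundant members were Rpl4, Rps3, Rpl8, Rplp0, Rps9, Rplp1 and Rpl41, and none of these passed the test. Rpl4, a large-subunit protein that lines the tunnel for the growing chain, had 806, 752, 816 and 809.8 CPM in the Tomato-positive libraries, against 776, 771, 1139 and 844 CPM in the Tomato-negative libraries. Rps3, which sits where the mRNA enters the small subunit and also takes part in DNA repair, had 680.4, 641, 615 and 603 CPM in the Tomato-positive libraries, against 545, 585, 1232 and 683 CPM in the Tomato-negative libraries. For both genes the Tomato-negative library CKD627_1 was the highest and the other 3 Tomato-negative libraries fell within or close to the Tomato-positive range. The log2 differences of Rps3 in the 4 pairs were 0.28, 0.02, -1.03 and -0.16, and its paired estimate was -0.22 ± 0.21 (SE), with an adjusted p of 0.558 by edgeR. Rpl8, a protein near the catalytic centre, averaged 562 ± 19.96 CPM in the Tomato-positive libraries and 676 ± 245 CPM in the Tomato-negative libraries (SD, n = 4 each). Rps9 averaged 514 ± 38.6 CPM in the Tomato-positive libraries and 615 ± 271 CPM in the Tomato-negative libraries (SD, n = 4 each). Rpl41, whose product is a very short, basic peptide, had 411, 313, 379 and 425 CPM in the Tomato-positive libraries, against 400.5, 386, 934 and 477 CPM in the Tomato-negative libraries. The order of these levels in CPM favours long transcripts, and per length Rpl41 led.

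Members whose groups did not overlap were all lower in Tomato-positive cells. On TMM-scaled log2 CPM these were 8 of 80, or 10%, against 6.48% of all genes, namely Rpl3l, Rpl14, Rpl15, Rpl29, Rpl36, Rplp1, Rps25 and Rps26, while 0 members were higher without overlap, against 6.74% of all genes. On the unscaled CPM printed here 5 of 80 were lower without overlap, or 6.25%, against 5.69% of all genes, namely Rpl14, Rpl39, Rpl3l, Rplp1 and Rps26. Again 0 were higher without overlap, against 7.13% of all genes. With the trend on length removed the paired differences of Rpl14, Rps26, Rplp1, Rpl36, Rpl29 and Rps6 shrank to -0.26, -0.17, -0.11, -0.16, -0.01 and -0.14, in that order. Rpl14 came closest to the threshold. It had 111, 109.7, 121 and 106 CPM in the Tomato-positive libraries, against 144, 136, 252 and 134 CPM in the Tomato-negative libraries. All 4 Tomato-positive libraries lay below all 4 Tomato-negative ones, with log2 differences of -0.41, -0.42, -1.09 and -0.32 in the pairs and a paired difference of -0.56 ± 0.16 (SE), with an adjusted p of 0.0714 by edgeR. Without the pair CKD627_1 the difference of Rpl14 was -0.38 ± 0.11 (SE), with an adjusted p of 0.0708.

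Rps26, which contacts the mRNA just before the start codon and can leave mature ribosomes under stress, as known from yeast, had 40.5, 49.6, 48.6 and 44.3 CPM in the Tomato-positive libraries, against 55.04, 53.3, 104 and 58.9 CPM in the Tomato-negative libraries. Its groups were also separate, and the paired difference was -0.55 ± 0.17 (SE), with an adjusted p of 0.091 by edgeR. Rps25, a small-subunit protein used by some viral and cellular internal ribosome entry sites, had 47.9, 32.9, 42.3 and 44.4 CPM in the Tomato-positive libraries, against 48.2, 46.5, 89.4 and 52.9 CPM in the Tomato-negative libraries. On this unscaled CPM its groups overlapped slightly, and its paired difference was -0.50 ± 0.19 (SE), with an adjusted p of 0.146. Rpl36 averaged 16.03 ± 1.62 CPM in the Tomato-positive libraries and 25.2 ± 9.90 CPM in the Tomato-negative libraries (SD, n = 4 each). Rpl29 averaged 152 ± 12.4 CPM in the Tomato-positive libraries and 199 ± 66.4 CPM in the Tomato-negative libraries (SD, n = 4 each), with log2 differences of -0.30, -0.26, -0.89 and -0.07 in the pairs. Rpl15, also of the large subunit, gave log2 differences of -0.07, -0.15, -0.79 and -0.10, so that outside the pair CKD627_1 its groups were barely apart.

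**Figure D3:**
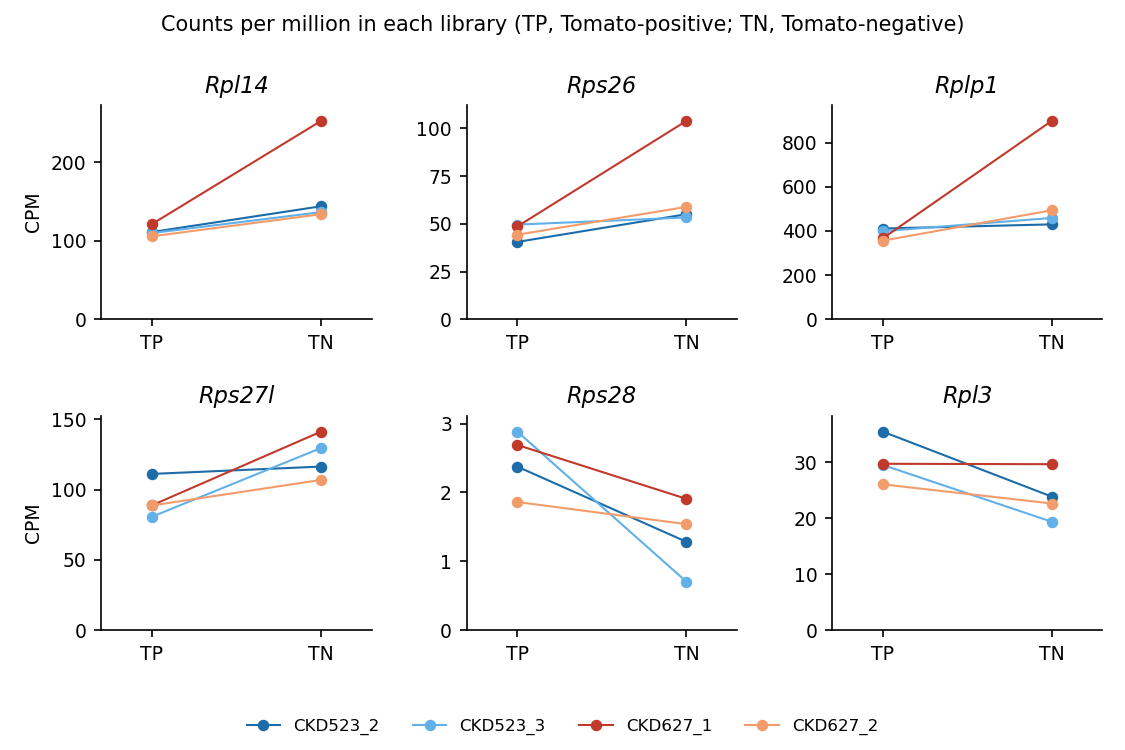
CPM of 6 members in each library (vertical axes start at 0), with Tomato-positive libraries (TP) left of Tomato-negative ones (TN) and lines joining the libraries of an identifier. Rpl14, Rps26, Rplp1 and Rps27l are lower in the Tomato-positive library of every pair, Rps28 is higher in every pair, and Rpl3 is higher in all pairs but CKD627_1, where its levels of 29.7 and 29.6 CPM nearly coincide.

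The 5 lowest paired differences belonged to genes with few counts. Rpl3l, a copy of Rpl3 that heart and skeletal muscle use in its place, had 1.26, 0.792, 0.590 and 0.654 CPM in the Tomato-positive libraries, against 2.06, 1.40, 2.89 and 2.28 CPM in the Tomato-negative libraries. Every Tomato-positive library was below every Tomato-negative one, but at these levels the paired difference of -1.43 ± 0.64 (SE), with an adjusted p of 0.204 by edgeR, has a 95% interval of -2.87 to 0.01. Rps29, a zinc-binding small-subunit protein, had 0.965, 0.283, 1.44 and 0.754 CPM in the Tomato-positive libraries, against 0.854, 0.468, 2.64 and 2.21 CPM in the Tomato-negative libraries. Its groups overlapped. Rpl39, which lines the exit tunnel, had 6.90, 8.43, 6.04 and 6.49 CPM in the Tomato-positive libraries, against 9.47, 8.60, 23.9 and 8.63 CPM in the Tomato-negative libraries. The Tomato-negative library CKD627_1 held far more Rpl39 than any other, and the difference was -0.75 ± 0.34 (SE), with an adjusted p of 0.209. Without that pair it was -0.34 ± 0.26 (SE). Rpl36a averaged 2.33 ± 0.832 CPM in the Tomato-positive libraries and 3.73 ± 0.839 CPM in the Tomato-negative libraries (SD, n = 4 each). Rpl30 had the fewest counts of these, 0 to 19 per library, with 0.742, 1.07, 0 and 0.453 CPM in the Tomato-positive libraries, against 0.427, 1.11, 1.05 and 0.468 CPM in the Tomato-negative libraries, and 3 counts amount to 0.151 to 0.223 CPM.

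Among the 5 highest paired differences, too, the levels were low. Rps28 had 2.37, 2.88, 2.69 and 1.86 CPM in the Tomato-positive libraries, against 1.28, 0.702, 1.91 and 1.54 CPM in the Tomato-negative libraries. It was higher in Tomato-positive cells of every pair, at 0.80, 1.77, 0.44 and 0.27 on the log2 scale, yet the paired difference was 0.86 ± 0.59 (SE), with an adjusted p of 0.397 by edgeR. Rps13 had 4.38, 7.41, 2.10 and 5.53 CPM in the Tomato-positive libraries, against 3.56, 1.40, 4.67 and 2.41 CPM in the Tomato-negative libraries, and its pairs ran in both directions. Rpl9, a large-subunit protein, had 12.2, 11.1, 6.17 and 8.45 CPM in the Tomato-positive libraries, against 9.68, 3.98, 7.26 and 4.75 CPM in the Tomato-negative libraries. Its paired difference was 0.56 ± 0.32 (SE), with an adjusted p of 0.313. Rps15a averaged 13.04 ± 0.549 CPM in the Tomato-positive libraries and 10.2 ± 3.77 CPM in the Tomato-negative libraries (SD, n = 4 each), and Rps27, described with its copies below, is the remaining one. A further pair of members with more counts pointed the same way. Rpl3, which helps to form the peptidyl transferase centre, had 35.5, 29.5, 29.7 and 26.05 CPM in the Tomato-positive libraries, against 23.9, 19.4, 29.6 and 22.6 CPM in the Tomato-negative libraries. Its Tomato-positive libraries were clearly higher in both CKD523 pairs, slightly higher in CKD627_2 and level with the Tomato-negative library in CKD627_1, with a paired difference of 0.31 ± 0.17 (SE), with an adjusted p of 0.289. Rpl10, which joins the large subunit late and is needed before it can enter translation, averaged 20.1 ± 3.18 CPM in the Tomato-positive libraries and 16.1 ± 2.46 CPM in the Tomato-negative libraries (SD, n = 4 each), was higher in every pair at 0.06, 0.22, 0.49 and 0.34 and had a paired difference of 0.28 ± 0.18 (SE), with an adjusted p of 0.368.

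**Figure D4:**
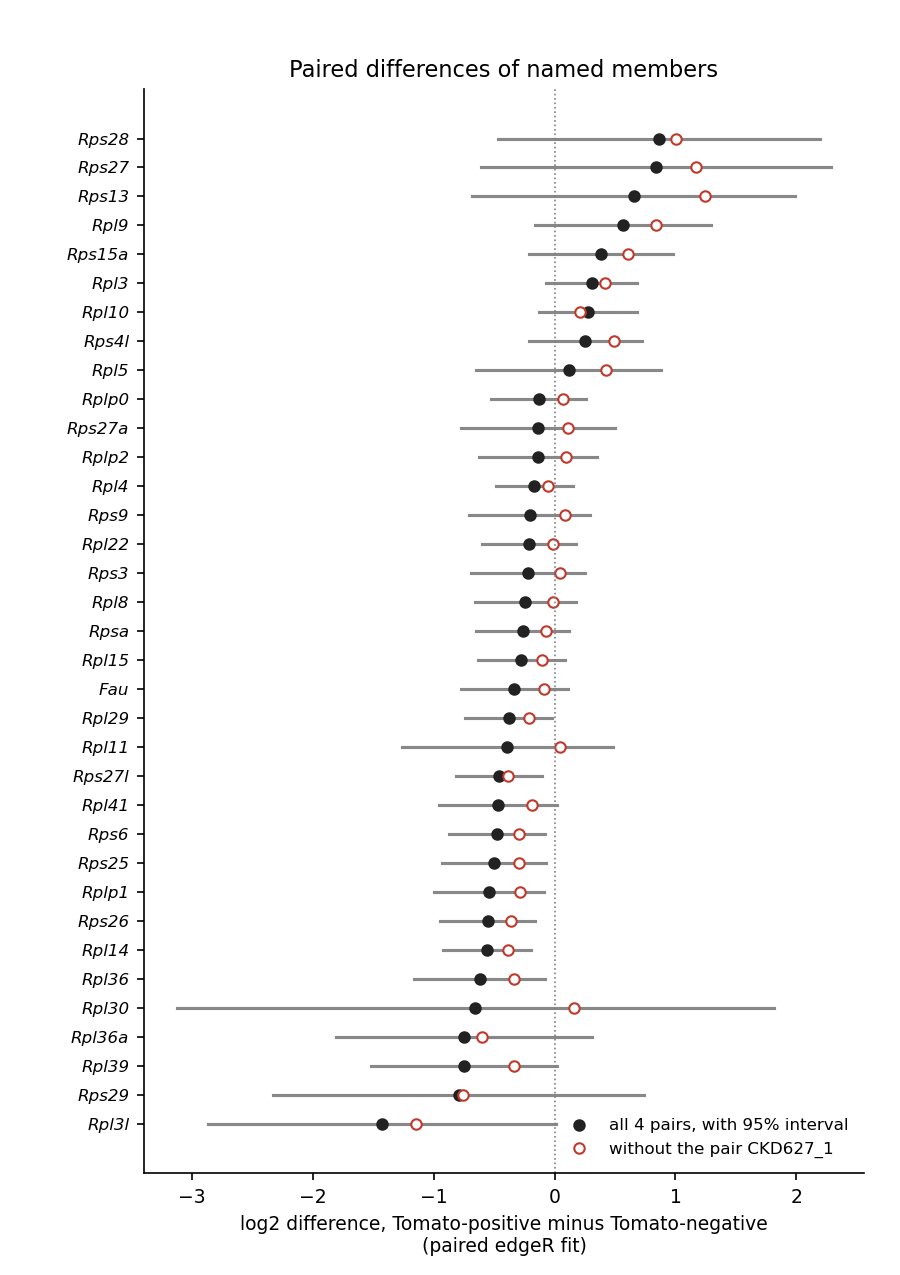
Paired log2 differences, Tomato-positive minus Tomato-negative (horizontal axis), of the members named by rule and of those whose groups did not overlap; black points with 95% intervals use all 4 pairs and open red points leave out the pair CKD627_1. None passes the threshold after adjustment over 14284 genes, and the abundant members such as Rps3 and Rps9 move to about 0 without that pair.

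No member with a special role passed the edgeR test either. The acidic P proteins form the stalk of the large subunit that recruits elongation factors. Rplp0, which anchors the stalk, averaged 571 ± 21.5 CPM in the Tomato-positive libraries and 629.8 ± 202 CPM in the Tomato-negative libraries (SD, n = 4 each), with a paired difference of -0.13 ± 0.17 (SE), with an adjusted p of 0.688 by edgeR. Its partner Rplp1 had 411, 399, 366 and 356 CPM in the Tomato-positive libraries, against 429.8, 459, 898 and 494 CPM in the Tomato-negative libraries. The Rplp1 groups were separate, at a paired difference of -0.54 ± 0.20 (SE), with an adjusted p of 0.136 by edgeR, and -0.29 ± 0.13 (SE) without the pair CKD627_1. Rplp2, the other partner, had 39.3, 33.7, 44.9 and 29.5 CPM in the Tomato-positive libraries, against 31.8, 23.97, 78.5 and 38.2 CPM in the Tomato-negative libraries, and its groups overlapped fully. The stalk proteins gave pair medians of 0.18, 0.08, -0.83 and -0.35.

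Rpl5 and Rpl11 carry the 5S RNA into the large subunit and are the ribosomal proteins best known for holding back MDM2. Rpl5 had 7.64, 8.20, 4.99 and 8.10 CPM in the Tomato-positive libraries, against 7.83, 4.62, 8.67 and 5.29 CPM in the Tomato-negative libraries. Rpl11 had 10.2, 8.71, 3.67 and 5.28 CPM in the Tomato-positive libraries, against 6.83, 7.95, 12.3 and 7.23 CPM in the Tomato-negative libraries. Neither gene separated the groups, with paired differences of 0.12 ± 0.34 (SE) for Rpl5 and -0.39 ± 0.38 (SE) for Rpl11, whose 95% intervals run from -0.65 to 0.88 and from -1.26 to 0.48. Of the 8 tested genes of the pathway by which ribosomal proteins act on MDM2 and p53, 2 were higher in the paired test, where 3.82% of all genes were. Mdm4, the MDM2 relative that restrains p53, averaged 118 ± 13.4 CPM in the Tomato-positive libraries and 70.7 ± 11.5 CPM in the Tomato-negative libraries (SD, n = 4 each), with a paired difference of 0.71 ± 0.17 (SE) and an adjusted p of 0.0379 by edgeR. Myc, a transcription factor that drives ribosome production, averaged 152 ± 45.5 CPM in the Tomato-positive libraries and 81.7 ± 24.1 CPM in the Tomato-negative libraries (SD, n = 4 each), with a difference of 0.86 ± 0.14 (SE) and an adjusted p of 0.0115. Both were higher in all 4 pairs, and neither passed without the pairing (adjusted p of 0.0809 and 0.19). Mdm2 itself averaged 77.1 ± 16.5 CPM in the Tomato-positive libraries and 63.2 ± 14.9 CPM in the Tomato-negative libraries (SD, n = 4 each) and Trp53 averaged 80.2 ± 6.19 CPM in the Tomato-positive libraries and 66.5 ± 15.4 CPM in the Tomato-negative libraries (SD, n = 4 each); neither passed.

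Rps27a and Fau are made as fusions to ubiquitin or a ubiquitin-like protein, which is cut off. Rps27a had 6.98, 7.69, 7.74 and 9.40 CPM in the Tomato-positive libraries, against 7.48, 6.37, 13.8 and 7.76 CPM in the Tomato-negative libraries. Fau was far more abundant, at 362, 378, 331 and 326 CPM in the Tomato-positive libraries, against 356, 344, 687 and 402 CPM in the Tomato-negative libraries. Apart from the Tomato-negative library CKD627_1 the Fau levels of both groups overlapped, and its paired difference was -0.33 ± 0.19 (SE), with an adjusted p of 0.323 by edgeR. Rpsa, also known as the laminin receptor, averaged 109 ± 17.2 CPM in the Tomato-positive libraries and 134 ± 59.96 CPM in the Tomato-negative libraries (SD, n = 4 each). Rpl22, a large-subunit protein that cells can do without, averaged 191 ± 9.73 CPM in the Tomato-positive libraries and 223 ± 75.4 CPM in the Tomato-negative libraries (SD, n = 4 each). Rps6, the substrate of the S6 kinases downstream of mTORC1, had 39.9, 32.7, 48.5 and 43.95 CPM in the Tomato-positive libraries, against 49.7, 41.6, 96.9 and 46.6 CPM in the Tomato-negative libraries. It was lower in the Tomato-positive library of every pair, at -0.35, -0.46, -1.03 and -0.06, with a paired difference of -0.48 ± 0.18 (SE), with an adjusted p of 0.137.

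Several of these values are uncertain because the genes share their sequence with copies elsewhere, and no source used here says how reads that fit more than 1 place were counted. Rps6 on chromosome 4 and its processed pseudogene Rps6-ps4 on chromosome 2 are identical over all 750 coding bases (GENCODE M21 models of GRCm38). The first 60 coding bases, the same in both, show why reads from them cannot be told apart.
Rps6 and Rps6-ps4: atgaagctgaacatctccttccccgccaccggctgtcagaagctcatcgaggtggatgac
The row of the pseudogene held 90.3% of the counts of both rows, at 453 ± 34.4 CPM in the Tomato-positive libraries and 478 ± 158 CPM in the Tomato-negative libraries (SD, n = 4 each). Likewise Rpl37rt, which differs from Rpl37 at 1 of 294 coding bases, held 97.1% of the counts of that pair. Rpl14-ps1, with 4 differences over 651 aligned bases, held 67.4% of those of Rpl14 and itself, and Rps18-ps4 held 76.1% of those of Rps18 and itself. The 7 tested pseudogene rows of ribosomal proteins had a paired median of -0.20 and pair medians of -0.08, 0.01, -0.91 and -0.10, close to those of the members. Rpl14, the member nearest to the threshold, holds the smaller part of the reads of both rows, and its copy had a paired difference of -0.17 ± 0.14 (SE). Rpl10a, Rpl3 and Rpl10 are limited in the same way, with 0.498%, 4.30% and 0% of their 50-base coding windows found in no other gene.

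Rps27 and Rps27l show the opposite case, a copy that can be read apart. Rps27l is a p53-inducible relative of Rps27, with 76.3% identical bases over their aligned coding sequences. The first 60 coding bases of each follow, with the 18 bases that differ in capitals.
Rps27: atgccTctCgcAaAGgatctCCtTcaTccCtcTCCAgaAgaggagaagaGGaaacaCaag
Rps27l: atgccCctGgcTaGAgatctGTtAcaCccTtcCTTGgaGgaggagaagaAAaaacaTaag
Rps27l had 111, 80.7, 88.8 and 88.7 CPM in the Tomato-positive libraries, against 116, 129.6, 141 and 107 CPM in the Tomato-negative libraries. It was lower in the Tomato-positive library of every pair, at -0.10, -0.79, -0.70 and -0.25, and its paired difference was -0.46 ± 0.16 (SE), with an adjusted p of 0.111 by edgeR. With the trend on length removed that difference was -0.02 ± 0.14 (SE). Rps27 itself, identical over its whole coding sequence to the protein-coding retrocopy Rps27rt, had 2.37, 1.53, 2.89 and 3.52 CPM in the Tomato-positive libraries, against 0.356, 1.29, 2.95 and 1.81 CPM in the Tomato-negative libraries. Rps27rt was counted at 0 in every library, which sets no limit on its level, since reads from it fit Rps27 as well, and the low level of Rps27 is uncertain for the same reason. Rpl10l and Rpl39l, copies used mainly in the testis, were at 0 in all 8 libraries, and so was Rpl26, a widely expressed member of the large subunit. Of the 100-base windows of the Rpl26 transcript, 63.2% occur in no other gene. The cause of its 0 counts was not tested, and they do not show that the gene is silent. Rps4l, annotated as a transcribed processed pseudogene, averaged 36.99 ± 7.08 CPM in the Tomato-positive libraries and 31.9 ± 13.8 CPM in the Tomato-negative libraries (SD, n = 4 each). Rpl32l, annotated as a processed pseudogene, averaged 25.3 ± 4.83 CPM in the Tomato-positive libraries and 24.5 ± 6.06 CPM in the Tomato-negative libraries (SD, n = 4 each).

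Levels per transcript length, as RPKM, the count scaled by transcript length and by the total of the library, spanned 0.751 RPKM for Rpl30 to 1066 RPKM for Rpl41, although the proteins are needed in about equal numbers. Members with more unique coding sequence had the higher levels. Of the 81 members with an annotated coding sequence, 67 had under 50% of their 50-base coding windows found in no other gene. The 60 tested members with under 25% unique windows had a median of 16.2 RPKM, the 13 with 25 to 75% had 442 RPKM and the 5 above that had 546 RPKM. Across 78 members Spearman's rho between the unique share and the RPKM was 0.496, a description only, since all values come from the same 8 libraries. Over whole transcripts the relation was weaker, with a rho of 0.257 for 50-base windows and 0.378 for 100-base windows (80 members). Rpl41 and Fau, with no unique window, were exceptions with high levels, and Rpl3l, with only unique windows, was one with a low level. The median difference between the groups did not follow the unique share, at -0.23, -0.30 and -0.22 in the paired fit for the 3 classes. The spread of the differences did differ. In the class under 25%, 42 of 60 members were below 0, and the highest paired difference was 0.86. All 13 and all 5 members of the other classes were below 0. Typical standard errors in the 3 classes were 0.27, 0.19 and 0.21. Members of at least 20 CPM and those below gave -0.26 and -0.17, with typical standard errors of 0.18 and 0.34. Rps15a and Rps20 have long annotated transcripts, which lowers their RPKM.

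**Figure D5:**
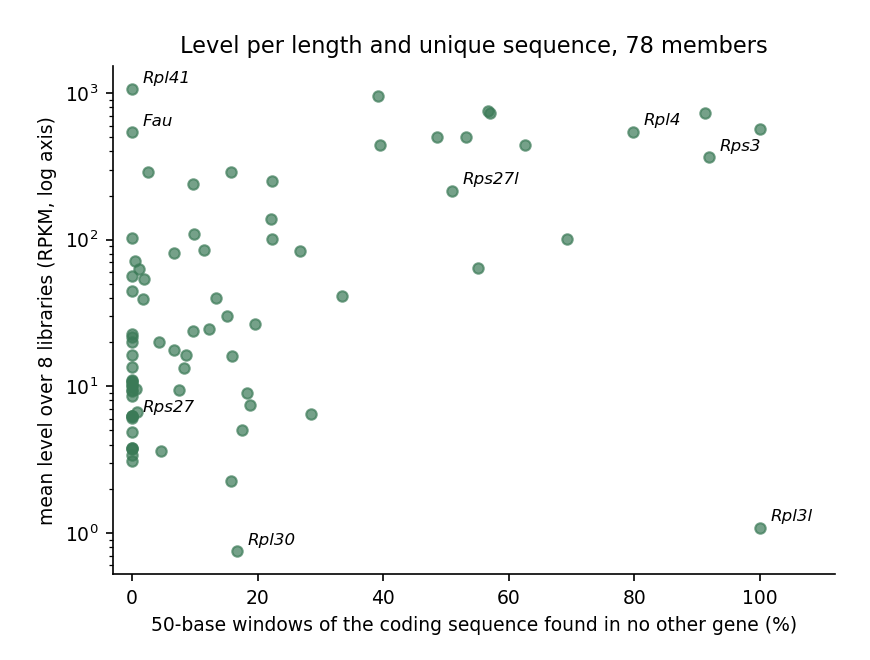
Mean level over the 8 libraries in RPKM (vertical log axis) against the percentage of 50-base windows of the coding sequence that occur in no other gene (horizontal axis), 1 point per member (n = 78). Members at the left, with few unique windows, span the whole range of levels, whereas all but Rpl3l of those above 75% lie at 366 RPKM or more.

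A TOP tract could be seen at the annotated start of many members. The windows below run from 12 bases before to 18 bases from the annotated start (RefSeq, GRCm38.p6) on the strand of the gene, with the pyrimidine run in capitals. They belong to Fau at chr19:6057935-6057964 (plus strand), Rpl15 at chr14:18270969-18270998 (minus strand), Rpl14 at chr9:120571505-120571534 (plus strand), Rps6 at chr4:86857350-86857379 (minus strand) and Rps26 at chr10:128626489-128626518 (minus strand). All are members described above that have the run near the annotated start. Others described above, such as Rpl4, Rps3 and Rpl41, have none that starts within 5 bases of it. The Rpl4 window does hold a pyrimidine run, which begins 12 bases before the annotated start. The count of runs thus depends on where the start is annotated.
Fau: gcgcccccaCTTCTTCCTCTTTCTTgactc
Rpl15: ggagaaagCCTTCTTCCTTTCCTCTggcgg
Rpl14: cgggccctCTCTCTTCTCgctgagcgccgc
Rps6: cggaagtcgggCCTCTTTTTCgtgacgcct
Rps26: gggcaagccgccggatCCTCTTTCgagtct
The run was counted as a C followed by at least 4 bases that are each C or T, starting within 5 bases of the annotated start on the sense strand. It was present in 30 of the 62 members with a start in the table (48.4%), against 23.5% of the other tested genes and 18.3% of all starts. Tested members with and without the run had paired medians of -0.24 (30 genes) and -0.22 (29 genes). Other mRNAs known to start with a TOP tract, 23 genes of the translation machinery and related proteins, had a paired median of -0.18. Their pair medians were 0.12, -0.06, -0.62 and -0.11. The paired test called 0 of them, where it called 7.62% of all genes. Pabpc1, the poly(A)-binding protein and the member of that list with one of the highest levels, averaged 613 ± 14.2 CPM in the Tomato-positive libraries and 476 ± 45.4 CPM in the Tomato-negative libraries (SD, n = 4 each), at a paired difference of 0.33 ± 0.13 (SE) and an adjusted p of 0.147 by edgeR. Rack1, a small-subunit scaffold protein outside the naming rule, averaged 638 ± 13.3 CPM in the Tomato-positive libraries and 710.1 ± 208 CPM in the Tomato-negative libraries (SD, n = 4 each).

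Within the prefixes the members' medians ran in different directions. Fitted alone with the pairing, which leaves 1 residual degree of freedom, the CKD523 libraries called 6 of 80 members, 4 higher (Rpl3, Rpl10a, Rpl12 and Rps4l, where 10.4% of all genes were higher) and 2 lower (Rpl14 and Rps27l, where 11.7% were lower), at a median of 0.12. These CKD523 calls, 5% of the members higher and 2.5% lower, were below the shares of all genes in both directions. The CKD627 libraries called 9 of 79 (11.4%), all lower (Rpl14, Rpl36, Rpl39, Rpl41, Rplp1, Rps14, Rps21, Rps26 and Fau), where 4.26% of all genes were lower, at a median of -0.59. Rpl14 was thus called lower in both prefixes. Unpaired, 2 of 80 were called in CKD523 (15.7% of all genes) and 0 of 79 in CKD627 (2.07%). The difference itself was then tested. The Tomato difference in CKD627 minus that in CKD523 had a median of -0.66 over the members, beside 0.01 over all genes, but 0 of 80 passed, where 0.014% of all genes did, and 12 (15%) were lower at an unadjusted p under 0.05, against 6.09% of all genes. Leaving out the Tomato-negative library CKD627_2, so that the high library CKD627_1 alone stood for that group, gave 24 members called, all lower in CKD627 (30%, against 3.29% of all genes). That arm then holds 1 library, assumed to vary like the other groups, so the 24 calls restate its high level. Leaving out CKD627_1 in its place gave 0 and a median of -0.25.

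Between the prefixes themselves, CKD627 against CKD523 with the Tomato group in the model, 0 of 80 members passed, where 21.1% of all genes did. This comparison rests on 2 identifiers against 2, with both libraries of an identifier counted separately, so its p-values may be too small, and the nephron segment markers given above move with it; their part in it was not tested. The members' median difference was 0.11, beside 0.03 over all genes. Rps4l came nearest, at 0.55 ± 0.19 (SE) with an adjusted p of 0.0574 by edgeR, followed by Rpsa at 0.45 ± 0.18 (SE) with 0.112. Both passed, higher in CKD627, once the trend on length was removed (11.6% of all genes were higher then). Rpsa had 126, 120.3, 223 and 119 CPM in the CKD627 libraries, Tomato-positive ones first, against 99.7, 89.7, 98.9 and 96.5 CPM in the CKD523 libraries.

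The rest of the translation machinery was also without a called gene in most lists. The paired test called 7.62% of all genes. It called 0 of 28 translation initiation factors, 0 of 7 elongation factors and 0 of 56 ribosome assembly factors. It also called 0 of 15 ribosomal protein chaperones and 0 of 18 factors of ribosome quality control and release. In the shorter lists a count of 0 lies near the share of all genes. The paired medians of all these lists were -0.15, -0.12, 0.00, -0.18 and 0.14, in the order named. Eef1a1, the factor that delivers aminoacyl-tRNA and the most abundant of these mRNAs, averaged 4518 ± 135 CPM in the Tomato-positive libraries and 4828 ± 760.1 CPM in the Tomato-negative libraries (SD, n = 4 each). Eef2, which moves the ribosome along the mRNA, averaged 2734 ± 61.1 CPM in the Tomato-positive libraries and 2636 ± 157 CPM in the Tomato-negative libraries (SD, n = 4 each). Ncl, the nucleolar protein nucleolin, averaged 478 ± 46.1 CPM in the Tomato-positive libraries and 489 ± 94.6 CPM in the Tomato-negative libraries (SD, n = 4 each). Of 34 genes that control TOP mRNAs through mTORC1, LARP1 or the 4E-BP proteins, 2 were higher, where 3.82% of all genes were, and 0 were lower. They are Sesn3 and Myc, which is also 1 of the 2 genes above. Sesn3, a sestrin that restrains mTORC1, averaged 60.2 ± 10.1 CPM in the Tomato-positive libraries and 25.4 ± 5.68 CPM in the Tomato-negative libraries (SD, n = 4 each), with a paired difference of 1.22 ± 0.17 (SE) and an adjusted p of 0.0062 by edgeR (0.0603 without the pairing). Larp1 averaged 167 ± 16.05 CPM in the Tomato-positive libraries and 134 ± 14.6 CPM in the Tomato-negative libraries (SD, n = 4 each) and did not pass.

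Other large protein complexes with short mRNAs gave the cytosolic ribosome a frame of comparison. Of 78 mitochondrial ribosomal proteins 10 were lower by the paired test (1 without the pairing) and 0 higher, where 3.81% of all genes were lower, at a median of -0.49 and pair medians of -0.30, -0.46, -0.80 and -0.36. Of 75 respiratory chain subunits 60 were lower (13 without the pairing) and 0 higher, at a median of -0.77 and pair medians of -0.53, -0.73, -1.18 and -0.61, and their transcripts, with a median of 732 bases, were shorter than those of the cytosolic ribosomal proteins. Of 38 proteasome subunits 0 passed, at a median of -0.27. In the pair CKD627_1 all 4 sets were lower, whereas in the CKD523 pairs the cytosolic ribosomal proteins had medians above 0 and the mitochondrial sets medians below 0. With the trend on length removed, the paired medians of the comparison sets moved towards 0 but stayed below it. They were -0.29 for mitochondrial ribosomal proteins, -0.45 for respiratory chain subunits and -0.10 for proteasome subunits, beside 0.07 for the cytosolic ribosomal proteins. No test between the sets was made. The cytosolic ribosomal proteins at the symbols outside the rule, among them Rpl36al and Rps3a1, gave a paired median of -0.32 over 6 tested genes, and Rpl36al averaged 83.1 ± 3.85 CPM in the Tomato-positive libraries and 130.4 ± 46.6 CPM in the Tomato-negative libraries (SD, n = 4 each).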

How the data were processed

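RNA from 8 libraries (4 Tomato-positive, 4 Tomato-negative) was sequenced by the authors, who deposited raw counts per gene symbol in 1 table. Reads were aligned with subread, per the file headers, to mm10, per the submitters' processing notes, which also name edgeR 3.32.1 and limma 3.46.0. No source used here names the annotation, the strand setting or the treatment of reads that fit several genes. Per the labels' protocols, RNA came from a single cell purification kit and went into NEBNext Ultra libraries.

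The members and gene lists were chosen with earlier results of these data known. Counts were tested with edgeR 4.0.16 (R 4.3.3; quasi-likelihood F test, TMM scaling, at least 10 counts in 4 libraries and 15 in all, Benjamini-Hochberg over 14284 genes), without and with the identifier as a block. The block was kept by the rule that every such correlation exceeds 0.1: deviations of the libraries of an identifier from their group means correlated at 0.464, 0.321, 0.330 and 0.465. Those of different identifiers of 1 prefix correlated as highly, at 0.425 and 0.337 in CKD523 and 0.467 and 0.296 in CKD627, so the shared deviation is not particular to the identifier and the data do not show that the pairs are animals. DESeq2 1.42.0 and limma 3.58.1 (voom) were alternatives. Pair differences are log2 CPM after TMM scaling with a prior count of 2. The trend on transcript length was a lowess curve (span 0.3) per library, used as an offset. Transcript lengths and coding sequences came from GENCODE M21 (GRCm38), with 1 gene model for 98.3% of tested genes and all 83 members. Scripts were tested on simulated data. Named members were, by rule, the called ones, the 5 highest and 5 lowest paired differences, the 8 most abundant, those with a listed role and 8 fixed genes; some are not reported here. Depth limits the members of few counts: 3 counts are 0.151 to 0.223 CPM, a floor that covers counting error only.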

Additional observations from a re-analysis of the deposited data

Results flagged for a closer look

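In 7 of 60 groups of 4 libraries examined, 1 library lay far from the other 3, measured as its gap to the nearest library divided by the group's whole range; a gap above Dixon's critical value for 4 libraries was marked, and chance marks about 1 group in 20. In 5 of the 7 it was the Tomato-negative library CKD627_1 that was highest, with a gap of 0.943 for Rpl39, 0.864 for Rplp1, 0.854 for Rps6, 0.834 for Rpl41 and 0.832 for Fau. These genes share that library, so the flags are not independent of each other. In the Tomato-positive group the library CKD523_3 was highest for Rps15a, with a gap of 0.897 over a range of 12.7 to 13.9 CPM, and lowest for Rpl4, with a gap of 0.851 over a range of 752 to 816 CPM.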

How the results depend on the processing

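With the replicate block (the identifier), 1089 genes and 0 members passed, against 85 and 0 without it, and the block changed no call of a member. Gene counts with the block were 1091 with DESeq2 size factors, 1095 with TMM factors computed without the members, 1118 with the trend on length removed (3 members), 2026 with DESeq2 (3 members) and 1389 with limma-voom (1 member). Leaving out a pair gave 521 (CKD523_2), 203 (CKD523_3), 1319 (CKD627_1, 1 member) and 384 (CKD627_2) genes. Unpaired counts were 1527 with the prefix as a covariate, 2231 in CKD523 alone (2 members), 303 in CKD627 alone, 51 with the trend on length removed (1 member), 45 with no filter on low counts and 1000 with DESeq2. Leaving out 1 library gave 6 to 26 genes and 0 members. Alternatives chosen after seeing the data were the paired fits in CKD523 alone (3143 genes, 6 members) and CKD627 alone (1366 genes, 9 members), and the removal of the trend on length without the Tomato-negative library CKD627_1 (19 genes, 0 members) or without its pair (1069 genes, 2 members). The members' median changed sign with the trend on length removed and in CKD523 alone. Without 1 library, and with no correction for length, it lay between -0.36 and -0.04. With that correction it was 0.16 without the Tomato-negative library CKD627_1 and 0.17 without its pair. On unscaled CPM, also chosen after seeing the data, 5 members were lower without overlap. For the difference between the prefixes, leaving out 1 library called 0 to 24 members; for CKD627 against CKD523 it called 0 to 1, and 2 with the trend on length removed. That removal, with and without the block in that order, turned the signs of Rpl4 (0.0077 and 0.0075), Rpl8 (0.096 and 0.090), Rplp0 (0.083 and 0.076), Rps9 (0.157 and 0.141), Rplp2 (0.173 and 0.139), Rps27a (0.22 and 0.22), Fau (0.032 and 0.030) and, without the block, Rpl11 (0.033), none of which had passed. The cause of these changes was not tested, beyond the length term itself. Depth limits members of few counts such as Rpl30, Rps29 and Rpl3l, and shared sequence limits those with close copies.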

Other observations

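Rps4l and Rpl32l, the members that GENCODE annotates as processed pseudogenes, were counted at 37.0 ± 7.08 and 25.3 ± 4.83 CPM in the Tomato-positive libraries and at 31.9 ± 13.8 and 24.5 ± 6.06 CPM in the Tomato-negative libraries (SD, n = 4 each). Rps4l is 80.1% identical to the coding sequence of Rps4x over 789 aligned bases, and its row held 24.8% of the counts of both. Rpl36al, an intronless relative of Rpl36a with 87.9% identical coding bases, held 97.3% of the counts of that pair.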
